A study of Arabidopsis thaliana with 64 samples.

Results

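PDF1.2 (AT5G44420), a plant defensin gene, and AT2G34810, a gene of the berberine bridge enzyme-like family, were followed across 64 two-channel arrays of Arabidopsis lines. The members were taken as every probe that the platform annotation assigns to either gene, which gave 2 of the 5164 named genes and 3 of the 13824 probes. PDF1.2 has the probes SP0000119092 and SP0000127959, and AT2G34810 has the probe SP0000121363. Both genes were chosen by measured values, their log2 ratios averaged over both day lengths: PDF1.2 by those in FCA and FY, AT2G34810 by those in GI and FWA. Those 4 sets of values are given as a description only, without a test.

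Each array set total RNA of a line against total RNA of a comparator. The photoperiod pathway, through which long days bring on flowering, gave the lines GI, CO, FHA, FT, FD, FE and FWA. The autonomous pathway, which acts in any day length, gave FY, FCA, FVE and FPA. GAI encodes a repressor of gibberellin responses and SOC1 an integrator of flowering signals. These 13 lines were set against wild type (WT), which the labels name as Ler for FHA at 16 h only. FLC20 was set against C24, although the source name of its 16 h arrays says WT. The double mutants FCAVRN1 and FCAVRN2 came in 4 further groups, against WT or against FCA. The 14 single lines were measured at 16 h and at 8 h of light, with 1 array of unswapped and 1 of swapped dyes in each of the 32 groups. Plants were 12 days old, and those of the FLC20 comparison 9 days. The sources used here do not give alleles, tissue or dyes. The labelled material could not be checked by level, since the values are ratios, and none of the 8 floral or 8 seed markers has a named probe. For the 16 h arrays of FVE the titles and descriptions conflict on day length, and the titles were followed. The labels of both FCAVRN1 groups conflict likewise, and no day length was used for them.

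Plant defensins are small secreted antifungal peptides. PDF1.2 is the usual marker of the branch of the jasmonate response that needs ethylene as well, in which EIN3 and the factors ERF1 and ORA59 switch on defence genes, while MYC2 holds that branch down and drives the wound branch. Berberine bridge enzyme-like proteins are flavin-dependent oxidases of the cell wall and secretory pathway, and AT2G34810 is known as a transcript induced by jasmonate and wounding.

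All values are log2 of the deposited ratio, so 0 means equal signal and 1 means a doubling. The labels do not settle the direction of the ratio. Positive values were read as higher in the line, a likely direction because each description compares the line with its comparator. Arrays of different groups and the same dye orientation correlated below -0.3 over all probes in 7 of 992 pairs, the lowest at -0.461. With the sign turned, every higher value in the text becomes a lower one and every lower value a higher one, while sizes and p-values stay. A ratio cannot tell a change in the line from a change in its comparator, and the sources used here do not say whether arrays had WT RNA in common. In RNA of whole samples, fewer cells of a type and less RNA per cell cannot be told apart either. Arrays carried 13792 to 13824 ratios, of which 10.3% to 11.6% were exactly 1.

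The PDF1.2 probes gave nearly the same picture. Over the 64 arrays their log2 ratios had a Pearson r of 0.96, had the same sign on 53 arrays and differed by 0.17 in the median and by at most 0.85. SP0000119092 spanned -2.80 to 2.51 with a median of 0.18, and SP0000127959 spanned -2.64 to 2.02 with a median of 0.07. The probe of PDF1.3, a near copy of PDF1.2 and the single other defensin gene with a named probe, followed both with an r of 0.92. Defensin copies share much of their sequence and the probe sequences were not used here, so how far these probes read each other's transcript was not tested. AT2G34810 moved in a narrower band, -0.84 to 1.24 with a median of 0.12.

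Disagreement between the 2 arrays of a group set a limit on single groups. Except in GI at 16 h, these arrays differ in biological replicate number as well as in dye orientation. Within a group the effects of dye and replicate cannot be told apart. The swapped and the unswapped array of a group had the same sign in 24 of 32 groups for either PDF1.2 probe, opposite signs in 5 and a value of 0 in 3. For AT2G34810 the counts were 21, 9 and 2. The widest disagreement lay in SOC1 at 16 h, where the unswapped array read -1.71 and the swapped array 0.83 on SP0000119092. PDF1.3 read -1.75 and 0.67 on the same arrays. The SOC1 means at 16 h therefore stand for 2 opposite readings.

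PDF1.2 varied more between groups than any other probe of the array. Over the 32 group means SP0000119092 had an SD of 1.00, rank 1 of 13824, and SP0000127959 an SD of 0.88, rank 2. The median probe had an SD of 0.14. AT2G34810 had an SD of 0.41, rank 141, and PDF1.3 one of 0.65, rank 10. The ranks describe the array and were not tested, since PDF1.2 was chosen for large values.

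**Figure D1:**
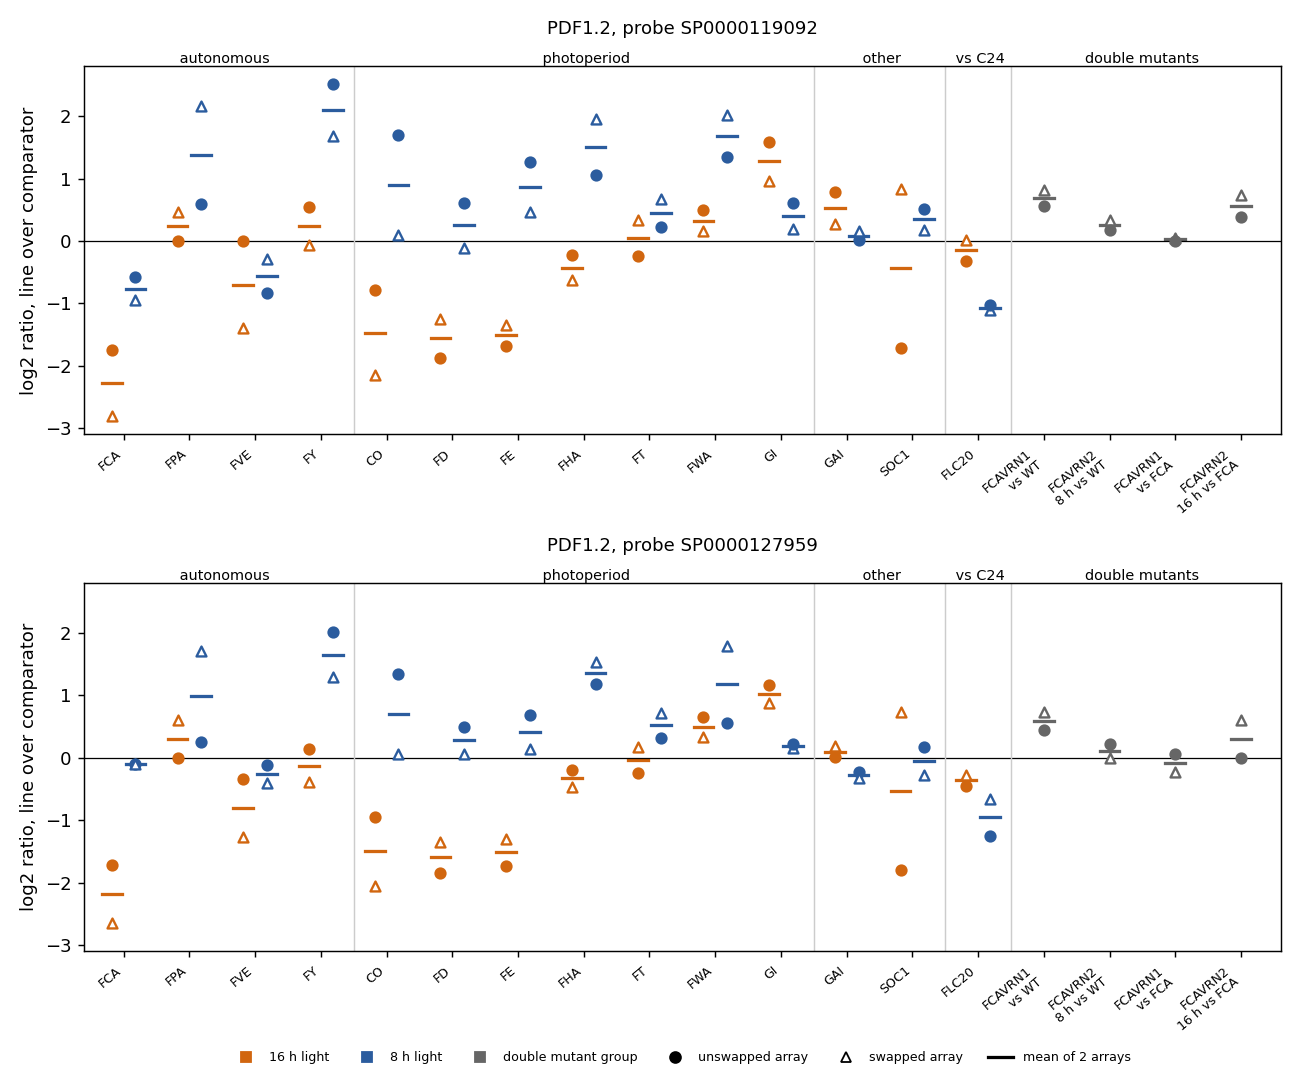
PDF1.2 on every array, upper panel SP0000119092 and lower panel SP0000127959. The vertical axis is the log2 ratio of line over comparator, orange is 16 h and blue 8 h of light, filled circles are unswapped and open triangles swapped arrays, and short lines are means of 2 arrays. FCA, CO, FD and FE lie below -0.7 on both 16 h arrays of either probe, while all their 8 h arrays lie above -1.

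The lowest PDF1.2 ratios were those of FCA, one of the lines that chose the gene. On SP0000119092 the FCA arrays read -1.75 and -2.80 at 16 h and -0.58 and -0.95 at 8 h, a mean of -1.52 ± 0.29 (SE, n = 4). On SP0000127959 they read -1.71 and -2.64 at 16 h and -0.09 and -0.09 at 8 h, a mean of -1.13 ± 0.26. All 8 values were below 0, and on both probes the 16 h arrays lay below the 8 h arrays.

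FY, the other choosing line, stood at the opposite end at 8 h. SP0000119092 read 0.54 and -0.06 at 16 h and 2.51 and 1.69 at 8 h, with a mean of 1.17 ± 0.29. SP0000127959 read 0.14 and -0.39 at 16 h and 2.02 and 1.29 at 8 h, with a mean of 0.77 ± 0.26. FY binds FCA in the same RNA processing machinery, and at 8 h the FY arrays of PDF1.2 did not overlap those of FCA. FCA and FY thus lay at the ends of the 14 lines on SP0000119092 when day lengths are averaged.

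Among the remaining lines FWA had the highest PDF1.2 ratio over both day lengths. SP0000119092 in FWA read 0.49 and 0.16 at 16 h and 1.34 and 2.02 at 8 h, all above 0, and averaged 1.00 ± 0.29 (a ratio of 2.00) with an adjusted p of 0.089 by limma with Benjamini-Hochberg adjustment. SP0000127959 in FWA averaged 0.84 ± 0.26 (adjusted p = 0.13). FWA did not pass with all arrays. With 1 of its own arrays left out its SP0000119092 mean ran from 0.82 to 1.19, and without 1 or the other SOC1_16h array it stayed at 1.00.

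GI and FPA also averaged above 0 without passing. GI, a clock-linked regulator of CO, read 1.59 and 0.96 at 16 h and 0.61 and 0.19 at 8 h on SP0000119092, all above 0. FPA read 0.00 and 0.47 at 16 h and 0.59 and 2.16 at 8 h, so that a single 8 h array stood far above the other 3. Without the unswapped FPA array at 8 h (replicate 2), the FPA means became 1.22 (adjusted p = 0.03) on SP0000119092 and 1.01 (adjusted p = 0.048) on SP0000127959, both of which passed. Without the swapped one (replicate 1), which read 2.16, they became 0.39 and 0.28 and did not pass, so the FPA mean rests on which 8 h array is kept.

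FD, FVE and FLC20 averaged below 0 on both probes, at -0.65, -0.63 and -0.61 on SP0000119092 and at -0.66, -0.53 and -0.66 on SP0000127959, each without passing. The CO, FE, FHA, FT, GAI and SOC1 means lay between -0.32 and 0.54 on SP0000119092 and between -0.55 (FE) and 0.52 (FHA) on SP0000127959. Of these, CO, FE and SOC1 also averaged below 0 on both probes. For CO, FE and FHA such a mean hides opposite signs at the 2 day lengths, as described below.

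In the test of lines over both day lengths, 0 of 36 member values passed an adjusted p of 0.05 in limma, leaving aside the 6 values that chose the genes. At an unadjusted p under 0.05 it was 16 of 36, where 10.3% of all probe values in the 14 line tests did so. The share of all probes that passed differed widely between lines. It was 0% in CO, 0.00723% in FT, 0.0145% in FVE, 0.0289% in SOC1 and 0.0362% in FHA. In FCA and in FPA it was 0.0723%, in FE 0.253%, in GAI 0.383% and in FWA 0.543%. In GI it was 1.17%, in FY 1.82%, in FD 5.85% and in FLC20 6.09%. In most lines hardly any probe passed, so a member that did not pass is not shown to be unchanged there. No label says that replicates came from separate cultures beyond their biological replicate numbers, so p-values measure the spread between these arrays.

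In most lines PDF1.2 read lower at 16 h than at 8 h. In CO, the day length sensor that turns on FT, SP0000119092 read -0.79 and -2.15 at 16 h and 1.70 and 0.09 at 8 h. In FE it read -1.68 and -1.34 at 16 h and 1.27 and 0.47 at 8 h. These 2 lines thus stood below WT at 16 h and above WT at 8 h on all arrays.

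FHA, the blue light receptor cryptochrome 2, and FD, the transcription factor partner of FT, ran the same way, FHA also with all 16 h arrays below WT and all 8 h arrays above it. FHA read -0.22 and -0.63 at 16 h and 1.06 and 1.95 at 8 h on SP0000119092. FD read -1.87 and -1.25 at 16 h and 0.61 and -0.11 at 8 h. In both lines the 16 h arrays lay below the 8 h arrays with no overlap.

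The 16 h minus 8 h differences of SP0000119092 were -2.38 ± 0.57 in FE, -2.36 ± 0.57 in CO, -1.93 ± 0.57 in FHA, -1.86 ± 0.57 in FY and -1.81 ± 0.57 in FD. For CO this is a ratio 5.14-fold lower at 16 h. Those of SP0000127959 in the same lines lay between -2.22 and -1.68, and FCA added -2.08 ± 0.52 on that probe and -1.51 ± 0.57 on SP0000119092.

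No line passed on its own. Of 42 differences of the 3 member probes, 0 had an adjusted p under 0.05 in limma, and 13 had an unadjusted p under 0.05, all of them PDF1.2. That is 7 of 14 for SP0000119092 and 6 of 14 for SP0000127959, where 6.02% of all probe values in these tests reached that level. In 11 of the 14 lines 0% of all probes passed the adjusted threshold, and the others had 0.00723% in FLC20, 0.0145% in GI and 0.13% in GAI. With 2 arrays at each day length this test hardly ever gave a call for any probe.

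Over the 13 lines set against WT, the same direction recurred. On SP0000119092 both 16 h arrays lay below both 8 h arrays in 8 lines (CO, FCA, FD, FE, FHA, FPA, FWA and FY), and on SP0000127959 in 7 (CO, FCA, FD, FE, FHA, FT and FY). The median over all probes was 2 lines, and 2.02% of probes reached 7 or more. GAI and GI were reversed on both probes.

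The mean 16 h minus 8 h difference over these 13 lines was tested after the values by array had been seen. At 16 h the 26 arrays of SP0000119092 ran from -2.80 through a median of -0.14 to 1.59, and at 8 h from -0.95 through 0.56 to 2.51. The groups overlap widely, with 14 of 26 arrays below 0 at 16 h and 5 of 26 at 8 h. The mean difference was -1.11 ± 0.16 (adjusted p = 6.1e-05, limma) on SP0000119092 and -1.02 ± 0.15 (adjusted p = 4.9e-05) on SP0000127959, so PDF1.2 was 2.15-fold and 2.03-fold lower against WT at 16 h than at 8 h. By size they ranked 1 and 2 among all probes, of which 5.44% passed, 505 lower and 247 higher. The SE and p-values of these mean differences rest on the spread between arrays of a group and leave out the spread between lines. On SP0000119092 the differences of single lines ran from -2.38 in FE to 0.87 in GI. The p-values therefore do not measure how alike the lines are.

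The fall also passed without the lines that chose the gene. Without FCA and FY the differences were -1.0 ± 0.18 (adjusted p = 0.001) and -0.86 ± 0.16 (adjusted p = 0.0015). They were -1.19 and -1.06 without FVE, whose day length labels conflict, and -1.13 and -1.07 without SOC1. With any 1 of the 52 arrays left out they stayed between -1.21 and -1.0 and between -1.12 and -0.93, and passed each time. PDF1.3 fell as well, by 0.68 ± 0.14 on the log2 scale (adjusted p = 0.0032). If the same WT RNA was used on several arrays of a day length, its PDF1.2 level enters all of those ratios together, and the part of that in the result was not tested. In the lines set against WT, all 8 h arrays except those of GI carry lower file numbers in their titles than any 16 h array. Day length and the series of arrays therefore cannot be told apart in the lines other than GI.

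**Figure D2:**
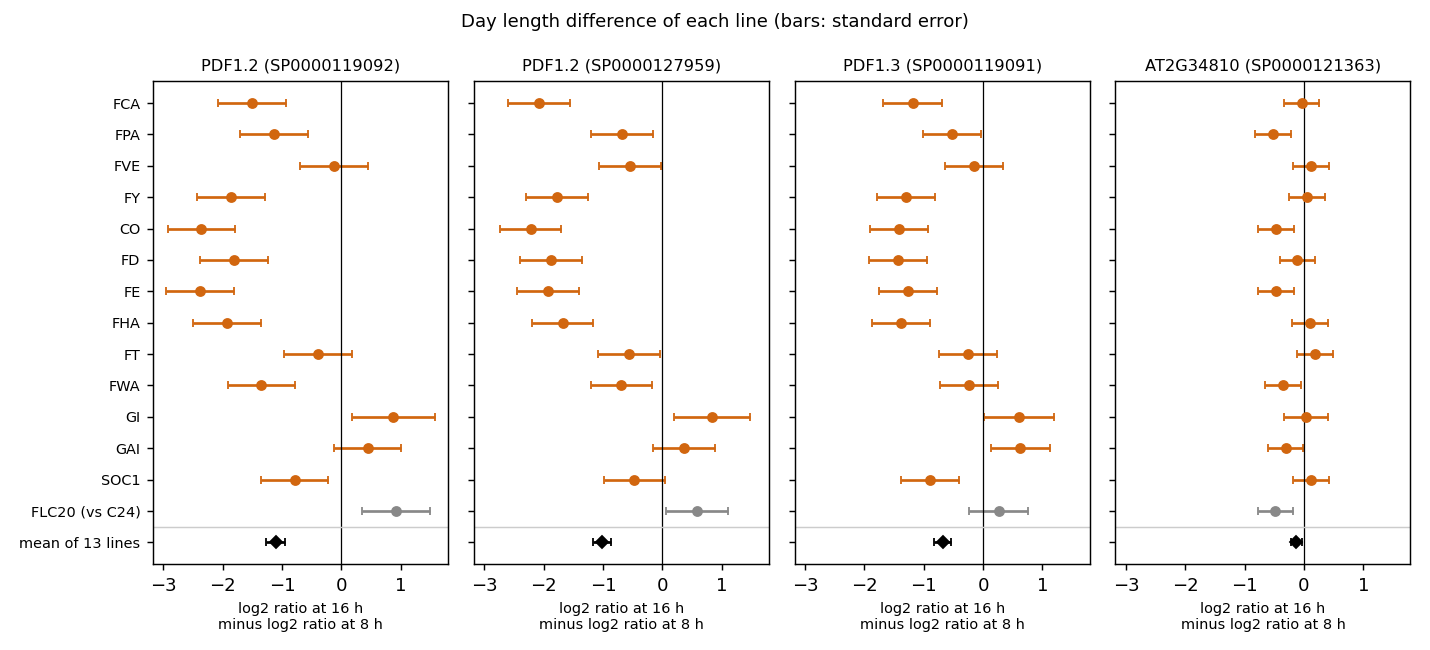
Log2 ratio at 16 h minus log2 ratio at 8 h for each line, with the standard error of the fit as bars, for both PDF1.2 probes, PDF1.3 and AT2G34810. FLC20 (grey) had C24 as comparator and is not in the mean of 13 lines (black diamond). Most PDF1.2 and PDF1.3 points lie left of 0, with GI, GAI and FLC20 to the right, and the AT2G34810 points lie between -0.52 and 0.19.

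GI and GAI had the opposite sign to most lines. The GI arrays stood above WT at both day lengths and higher at 16 h, with a difference of 0.87 ± 0.70 on SP0000119092 and 0.83 ± 0.64 on SP0000127959. GAI read 0.79 and 0.27 at 16 h and 0.01 and 0.16 at 8 h on SP0000119092, a difference of 0.44 ± 0.57. Each of the 13 lines was then set against the mean difference of the other lines, a comparison added after the values by array had been seen. Of 26 such values of PDF1.2, 0 passed in limma, where 0.00167% of all probe values did, and 8 had an unadjusted p under 0.05, against 4.05% of all probe values. On SP0000119092 these were 2 lines that stood higher, GI by 2.14 ± 0.72 (unadjusted p = 0.0052, adjusted p = 1) and GAI by 1.68 ± 0.60 (unadjusted p = 0.0081, adjusted p = 0.54), and 2 that stood lower, FE at -1.39 ± 0.60 (unadjusted p = 0.026, adjusted p = 1) and CO at -1.36 ± 0.60 (unadjusted p = 0.029, adjusted p = 1). No line was thus shown to differ from the others in its day length difference.

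FLC20, with C24 as comparator, also leaned the other way. SP0000119092 read -0.32 and 0.02 at 16 h and -1.03 and -1.11 at 8 h, and SP0000127959 read -0.45 and -0.27 at 16 h and -1.25 and -0.66 at 8 h. The 16 h arrays thus lay above the 8 h arrays on both probes, by 0.92 ± 0.57 (adjusted p = 0.52) and 0.59 ± 0.52 (adjusted p = 0.67), without passing. These plants differ in age and comparator from the other lines, which cannot be told apart from the line itself. The file numbers of the FLC20 arrays at 8 h also lie among those of the 16 h arrays of the other lines.

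The order of the lines changed with day length. At 16 h the fitted SP0000119092 values climbed from -2.28 in FCA, through -1.56 in FD, -1.51 in FE and -1.47 in CO, to 0.53 in GAI and 1.27 in GI. At 8 h they climbed from -1.07 in FLC20 and -0.76 in FCA to 1.5 in FHA, 1.68 in FWA and 2.1 in FY. Of the 13 steps between neighbouring lines, 3 at 16 h and 1 at 8 h exceeded 1 standard error of the step. The steps beyond it at 16 h lay between FCA and FD, CO and FVE, and GAI and GI, and the one at 8 h between FVE and GAI. Most neighbours in the order are therefore not separated, and at 8 h neither end of this probe lay beyond 1 standard error from the line next to it. On SP0000127959, 2 steps at 16 h and 1 at 8 h exceeded 1 standard error. The one at 8 h lay between FLC20 and GAI (0.68 ± 0.52), and the step from FWA to GI at 16 h did not exceed it (0.53 ± 0.64). A step beyond 1 standard error does not by itself show that neighbouring lines differ.

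AT2G34810 was highest in GI, one of its choosing lines. The GI arrays read 1.22 and 1.02 at 16 h and 1.23 and 0.93 at 8 h, which is a mean of 1.1 ± 0.19 (SE), a 2.14-fold ratio. FWA, the other choosing line, read 0.43 and 0.48 at 16 h and 0.79 and 0.82 at 8 h, with a mean of 0.63 ± 0.15. In both lines all 4 arrays lay above 0, and the arrays of a day length agreed closely. The 16 h arrays of GI are labelled as 1 biological replicate and entered the fit as their mean.

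**Figure D3:**
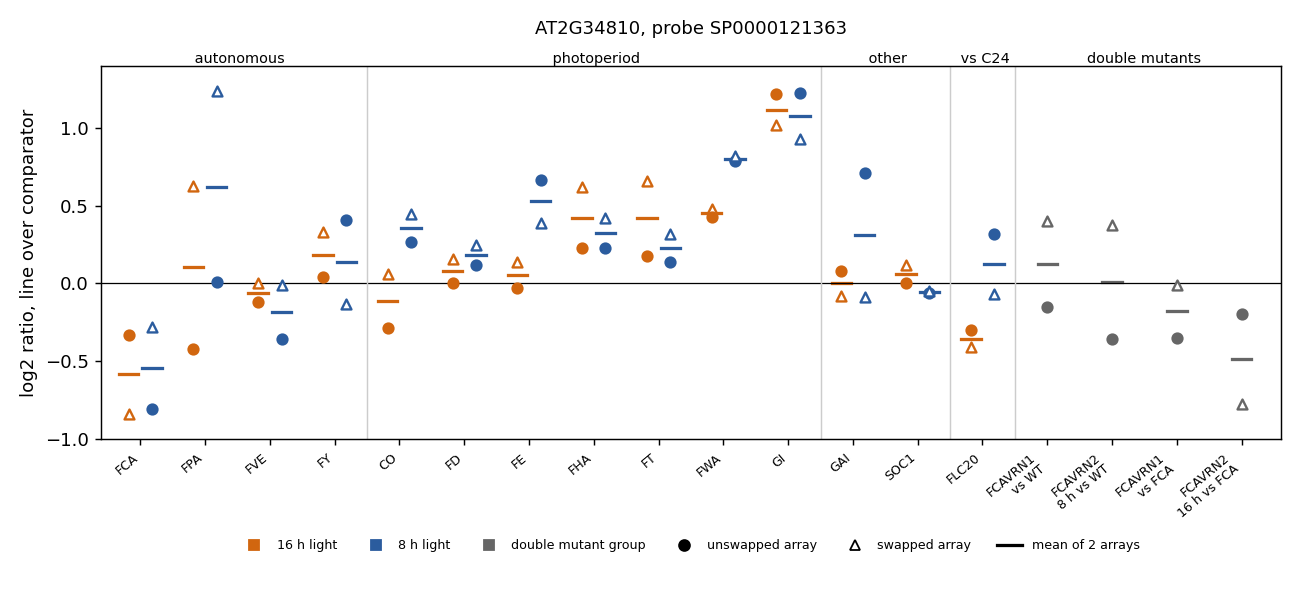
AT2G34810 on every array, with axes, colours and marks as in the plot of PDF1.2 by array but a narrower vertical range. All 4 GI arrays lie between 0.93 and 1.23, all 4 FCA arrays lie below 0, and 1 FPA array at 8 h reaches 1.24.

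At the other end, FCA arrays of AT2G34810 read -0.33 and -0.84 at 16 h and -0.81 and -0.28 at 8 h, all below 0. Their mean was -0.57 ± 0.15 with an adjusted p of 0.19 in limma. This is the line with the lowest value for both genes, and for AT2G34810 it was not a choosing value. The FCA value passed under 4 of 15 alternatives and, as in the main fit, did not pass under the other 11. Adjusted p in limma was 0.016 with array weights, 0.017 with arrays scaled to the same spread and 0.046 with quantile normalization. The last of the 4 set FCA against the other lines. Their mean holds the GI and FWA values that chose the gene, so this setting supports nothing. With 1 FCA array left out the mean ran from -0.73 to -0.40.

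The remaining lines lay closer to their comparator. FHA averaged 0.38, FPA 0.36, FT 0.33 and FE 0.29, each with an SE of 0.15, and the other 7 lines between -0.12 and 0.16. FPA again held 1 array apart, with -0.42 and 0.63 at 16 h and 0.01 and 1.24 at 8 h. Without its unswapped 8 h array (replicate 2) the FPA mean was 0.65 (adjusted p = 0.023), and without its swapped one (replicate 1) it was 0.08 and did not pass. The swapped FPA array at 8 h thus read high for both genes.

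Day length did not separate AT2G34810. The 26 arrays at 16 h ran from -0.84 through 0.10 to 1.22 and the 26 at 8 h from -0.81 through 0.26 to 1.24. The mean difference of the 13 lines was -0.13 ± 0.09 (adjusted p = 0.42). The 16 h arrays lay below the 8 h arrays in 3 lines (CO, FE and FWA), near the median of 2 lines over all probes, and above them in SOC1. In GI, its highest line, the difference was 0.04 ± 0.37. In the order of the lines at 16 h, FWA at 0.45 stood next below GI at 1.12.

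Between pathway classes, the difference of AT2G34810 was smaller without the lines that chose it. Without GI and FWA, autonomous minus photoperiod lines came to -0.29 ± 0.10 (adjusted p = 0.59, limma), which did not pass, where 0.0217% of all probes did. The 16 arrays of FCA, FPA, FVE and FY ran from -0.84 through -0.06 to 1.24, with 9 below 0, and 18 of the 20 arrays of the other 5 photoperiod lines were above 0. With GI and FWA the difference was -0.47 ± 0.10, a description with no test in a contrast where 0.311% of all probes passed, and the 28 photoperiod arrays ran from -0.29 through 0.36 to 1.23. PDF1.2 differed by -0.24 ± 0.18 and -0.15 ± 0.16 between the same classes, which include FCA and FY and are likewise a description.

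Averaged over both day lengths and the 11 lines set against WT other than GI and FWA, AT2G34810 stood at 0.11 ± 0.05 (adjusted p = 0.074) and did not pass, where 21.5% of all probes did. With GI and FWA the mean was 0.23 ± 0.04, with 35 of 52 arrays above 0, again a description. The PDF1.2 probes averaged 0.11 ± 0.08 and -0.00 ± 0.07 over all 13 lines.

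In the groups of FCA with VRN1 or VRN2, genes that keep FLC silent after cold, 0 of 12 member values passed in limma, and 1 had an unadjusted p under 0.05, against 9.44% of all probe values in these groups. The probes that passed made up 0% in FCAVRN1 against FCA, 0.0145% in FCAVRN1 against WT, 0.00723% in FCAVRN2 against WT at 8 h and 7.85% in FCAVRN2 against FCA at 16 h.

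PDF1.2 lay near or above its comparator there. FCAVRN1 against WT read 0.56 and 0.81 on SP0000119092, and FCAVRN2 against WT at 8 h read 0.18 and 0.34. Against FCA, FCAVRN1 read 0.00 and 0.05 and FCAVRN2 at 16 h 0.39 and 0.73. Against WT, the double mutant arrays lay above 0 on this probe and at or above 0 on SP0000127959. The 4 FCA arrays against WT lay below 0 on both probes. Against FCA, a value of 0 means the level of FCA. FCAVRN1 against FCA averaged 0.02 on SP0000119092 and -0.08 on SP0000127959, with 1 array of the latter at -0.23. FCAVRN1 thus read near the level of FCA and above WT, although FCA itself read below WT. These comparisons do not add up on their face, which was not tested, and they do not show that PDF1.2 returned to the WT level. FCAVRN2 against FCA at 16 h read 0.00 and 0.61 on SP0000127959. The double mutants were not tested against the FCA arrays, since FCA chose the gene and the day lengths of FCAVRN1 are uncertain. AT2G34810 had its lowest value of these groups in FCAVRN2 against FCA at 16 h, with -0.20 and -0.78 and a mean of -0.49 ± 0.22 (adjusted p = 0.16).

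Across all 32 groups the 2 genes moved together loosely. The group means of AT2G34810 had an r of 0.55 with SP0000119092 and of 0.51 with SP0000127959. Over the 13 lines the r was 0.77 and 0.79 at 16 h and 0.55 and 0.37 at 8 h. These points share arrays, dyes and possibly WT RNA. They also include the FCA and FY values that chose PDF1.2 and the GI and FWA values that chose AT2G34810. The r values are therefore a description and support nothing. FCA and GI are the lowest and highest lines of both genes at 16 h, while CO, FD and FE, low for PDF1.2 at 16 h, read between -0.29 and 0.16 for AT2G34810.

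**Figure D4:**
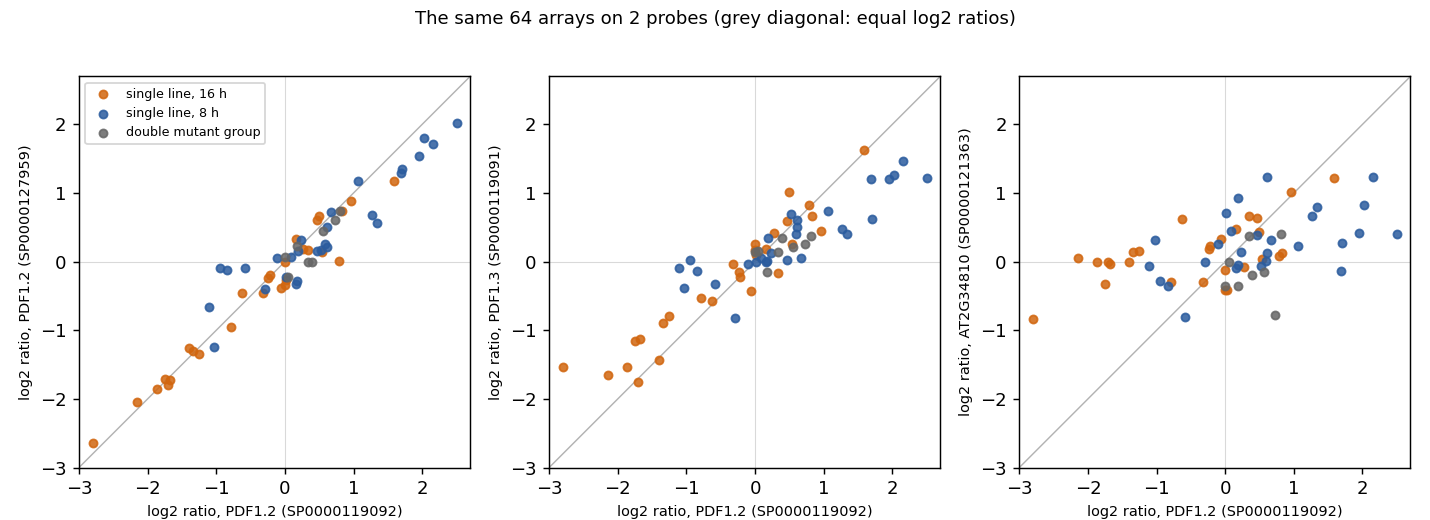
Log2 ratio of PDF1.2 on SP0000119092 (horizontal) against SP0000127959, PDF1.3 and AT2G34810 (vertical) on each of the 64 arrays, orange for single lines at 16 h, blue at 8 h and grey for double mutant groups. The PDF1.2 probes follow the diagonal (r = 0.96), PDF1.3 follows with a flatter slope (r = 0.92), and AT2G34810 spreads loosely (r = 0.49).

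The genes most like PDF1.2 over the 32 group means, among 5163 others, were PDF1.3 (r = 0.95), AT2G43590 (0.80), AT4G24350 (0.72), AT1G08360 (0.71) and CYP71B28 (0.69). AT2G43590 encodes a chitinase family protein, CYP71B28 a cytochrome P450 and AT1G08360 a ribosomal protein. Of the 4 AT2G43590 probes, 3, with mean 16 h minus 8 h differences of -0.95, -0.93 and -0.92, came next after PDF1.2 in the order of that difference among named probes. The least like were AT3G04550 (-0.65), AT5G26760 (-0.65) and AT2G40520 (-0.60). For AT2G34810 the most like were AT3G13150 (0.79), AT3G14220 (0.71), AT3G13940 (0.70), AT5G19250 (0.63) and AT4G12650 (0.62). The least like were AILP1 (-0.70), AT2G32150 (-0.66) and AT2G07000 (-0.65).

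The rest of the jasmonate pathway was thinly covered. Of 21 listed genes of jasmonate synthesis 1 was measured, AIM1, which acts in the peroxisomal β-oxidation that shortens the precursor. AIM1 rose at 16 h relative to 8 h by 0.21 ± 0.04 (adjusted p = 0.0025), opposite in sign to PDF1.2, and averaged 0.08 ± 0.02 over the 13 lines (adjusted p = 0.0021). Of 20 signalling genes 2 were measured, the MYC2 relatives MYC3 and MYC4. MYC3 was higher by 0.09 ± 0.03 in the mean of the 13 lines (adjusted p = 0.026), and MYC4 by 0.27 ± 0.08 in FLC20 (adjusted p = 0.027). Of all probes, 25.5% passed in the mean of the 13 lines, 6.09% in FLC20 and 5.44% in the mean day length difference.

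Of 18 genes of the MYC2 branch 1 was measured, AT2G38240, one of the oxygenases that inactivate jasmonate by hydroxylation. It rose by 0.47 ± 0.14 in FD (adjusted p = 0.035), by 0.54 ± 0.14 in FY (adjusted p = 0.034) and by 0.13 ± 0.04 in the mean of the 13 lines (adjusted p = 0.012). Of all probes, 5.85% passed in FD, 1.82% in FY and 25.5% in that mean. Among the 13 lines set against WT the lowest value of AT2G38240 was FCA at -0.31 and its highest GI at 0.58, neither of which passed. Of 15 genes of the ethylene branch 1 was measured, EIN3, which changed by -0.49 ± 0.12 in FCAVRN2 against FCA at 16 h (adjusted p = 0.012) and in none of the 14 lines. In that double mutant group 7.85% of all probes passed. ERF1, ORA59 and MYC2 have no named probe on the array. Of the 11 salicylate response genes 0 have a named probe.

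Among other defensins 1 of 11 was measured. Among the 13 lines set against WT, PDF1.3 was lowest in FCA, as both PDF1.2 probes were, and highest in GI, in a narrower range than theirs. It had no call in a line, with -0.74 ± 0.24 in FCA (adjusted p = 0.59) and 0.73 ± 0.30 in GI (adjusted p = 0.3). Its arrays in FCA read -1.15 and -1.53 at 16 h and -0.32 and 0.02 at 8 h. As for PDF1.2 on SP0000127959, the 16 h arrays of PDF1.3 lay below the 8 h arrays in 7 of 13 lines, and 2.02% of all probes reached 7 or more.

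Of the 26 other berberine bridge enzyme-like genes 9 were measured, on 14 probes. In FLC20, 5 of the 14 probes passed, all higher, against 6.09% of all probes there, and 4 of the 5 are probes of the same gene. No other value among the 196 of these probes in the 14 lines passed. AT4G20830 rose in FLC20 by 0.70 ± 0.15 (adjusted p = 0.0042), and AT5G44380 rose on 4 of its 6 probes, by 0.63 ± 0.14 on the strongest. In the mean of the 13 lines 5 of the 14 passed, 4 lower and 1 higher, against 25.5% of all probes. AT4G20830, the higher one, stood at 0.14 ± 0.04 (adjusted p = 0.011), and AT5G44410, among the lower, at -0.10 ± 0.02 (adjusted p = 0.00095). None of the 14 probes passed for day length, as AT2G34810 did not. Among the lines set against WT, AT4G20830 was highest in GI at 0.45, without passing.

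In the gene table of the TAIR10.1 assembly, PDF1.2 lies between AT5G44410, a berberine bridge enzyme-like gene, and PDF1.2c, a defensin copy without a named probe. The mean 16 h minus 8 h differences of AT5G44410 (-0.08 ± 0.04) and of the 6 probes of AT5G44380 (-0.22 to 0.03) did not pass. AT2G34810 lies next to MEE23, another member of the berberine bridge enzyme-like family, which has no named probe.

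Markers of tissue make-up were few. LHB1B2, a light-harvesting protein of green leaves and 1 of 9 such markers measured, was lower at 16 h than at 8 h by 0.29 ± 0.07 on 1 of its 2 probes (adjusted p = 0.011), in the same direction as PDF1.2. On the same probe LHB1B2 was also lower in FD (-0.50 ± 0.13, adjusted p = 0.012) and FWA (-0.61 ± 0.13, adjusted p = 0.017), and its other probe passed in neither line. PDF1.2 averaged below 0 in FD but above 0 in FWA (1.00 on SP0000119092 and 0.84 on SP0000127959), without passing in either. EXPA7, a root hair expansin and 1 of 9 root markers measured, changed by -0.06 between day lengths (adjusted p = 0.6). The part of tissue make-up in the PDF1.2 result was not tested.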

How the data were processed

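The deposited values are ratios of both channels, 1 per probe and array, with a median of 1 on every array. Per the labels' descriptions, the authors applied a spatial normalization (Wilson and others), and per the labels' titles the scans were GenePix files. The sources used here do not give background correction, spot filters, direction or how swapped arrays were treated. Of 884736 ratios 146 were missing, and signal over background is unknown. Ratios were taken to log2 and used as deposited on swapped and unswapped arrays alike, since after centring both arrays of a group correlated positively in 22 of 32 groups (median r 0.123).

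All probes and arrays entered 1 limma model (limma 3.58.1, R 4.3.3) of group means and dye orientation, with 30 residual and 5.17 prior degrees of freedom. The GI_16h arrays were averaged to 1 replicate. Two-sided p-values were adjusted by Benjamini-Hochberg over all probes within each contrast, and a value passed at an adjusted p under 0.05. Errors marked SE are moderated standard errors. Platform names covered 6341 probes, 6322 of them matched to the TAIR10.1 gene table, and 7483 probes were unnamed. Genes named for likeness were the 5 highest and 3 lowest by Pearson r over the group means, and listed genes were named where a probe passed.

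The members, lists and contrasts were chosen with earlier results of these data known. Alternatives covered the dye term, the sign of swapped arrays, scaling, quantile normalization, array weights, ratios of exactly 1, averaging of probes, pairing, the arrays fitted and each array left out. Same-numbered replicates did not pair, since their deviations correlated above 0.1 in 2 of 13 lines (median r -0.0414). In most groups the swapped array was replicate 1, so replicate number and dye orientation are largely the same split.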

Additional observations from a re-analysis of the deposited data

Results flagged for a closer look

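The following results came up because a test of the difference between groups passed. PDF1.2 was lower against WT at 16 h than at 8 h in the mean of 13 lines, by a log2 difference of -1.11 on SP0000119092 and of -1.02 on SP0000127959, although in no line alone.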

How the results depend on the processing

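With the sign of swapped arrays turned, the calls for the classes, for the mean of 13 lines and for the mean day length difference all came to 0, the mean day length difference of PDF1.2 on SP0000119092 was 0.037, and AT2G34810 in the mean of 13 lines was -0.062. PDF1.2 in FCA was then 0.355 and AT2G34810 in FWA -0.02. That setting sets the arrays of a group against each other. In lines over both day lengths the count of 0 became 1 of 36 with arrays scaled, 1 with quantile normalization, 1 with array weights, 1 of 33 against the mean of the other lines and 5 of 34 with the arrays of a line alone. The first 4 of these are AT2G34810 in FCA, and the 5 are PDF1.2 in CO, FD and FHA. The 1 of 33 is set against a mean that holds the GI and FWA values that chose AT2G34810, and supports nothing. For 16 h minus 8 h it became 2 of 42 with quantile normalization, both PDF1.2 in CO, and 8 of 39 with the arrays of a line alone. Averaging the probes of a gene left 1 of 2 calls for the mean day length difference, by construction. The single call for the classes and the one for the mean of 13 lines were AT2G34810, include the GI and FWA values that chose it and support nothing. Leaving GI and FWA out left 0 calls for either, settings chosen after seeing the data. With 1 array left out, the counts ran from 0 to 3 for lines and from 0 to 1 for the classes. For the double mutants the count stayed 0, for the mean of 13 lines 1 and for the mean day length difference 2. The cause of these changes was not tested otherwise. With the replicate block, the count was 0 of 36 for lines, 0 of 42 for day length, 1 for the classes and 2 for the mean day length difference, and the block changed no call. Arrays of GI alone leave no residual degrees of freedom and gave no value. Having 2 arrays per group limits every single value, and signal over background is unknown.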
